A study of Mus musculus with 11 samples.

Results

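The VEGF and angiopoietin signalling genes described here are Vegfa, Angpt1, Angpt2, Flt1, Kdr, Tek, Tie1, Lrg1 and Esm1, which are 9 of the 13734 genes measured in isolated mouse glomeruli. They were chosen by name as ligands, receptors and secreted modulators, and all 9 had counts in every library, in 21 of the 22320 transcript rows. VEGF-A is secreted by podocytes, the epithelial cells on the outer side of the glomerular filter, and acts on the fenestrated endothelium on its inner side through the receptors VEGFR1 (Flt1) and VEGFR2 (Kdr). Angiopoietin-1 activates the endothelial receptor Tie2 (Tek) and stabilises vessels, angiopoietin-2 opposes or modulates that signal according to context, and Tie1 is a partner receptor of Tie2. In mice, either too much or too little podocyte VEGF-A injures the glomerulus, and changed VEGF and angiopoietin signalling has long been studied in diabetic kidney disease.

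The libraries came from db/db mice on puerarin, an isoflavone glycoside of kudzu root given by gavage at 20 mg per kg body weight per day in 5% DMSO (n = 3), from db/db mice on the 5% DMSO vehicle (n = 4), and from db/m littermates on the same vehicle (n = 4). Mice of the db/db genotype are homozygous and db/m mice heterozygous for the db mutation of the leptin receptor, and treatment began at 10 weeks of age and lasted 6 weeks. The labels describe male mice on the BKS background, name C57BL/6J in the strain field, and leave unsaid whether the glomeruli of a library were pooled, so p-values measure only how these samples vary, in part perhaps for technical reasons. Of the library titles 5 carry an S number and 6 a numbered tag of the group; both forms occur in each group, and neither is tied by the labels to a site or date.

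Total counts were 35369703 to 44244460 per library. The podocyte gene Nphs1 (nephrin) was at 1178 to 1567 CPM and the endothelial gene Pecam1 at 1016 to 1850 CPM, where CPM are counts scaled to a common library total with TMM factors. Umod, a gene of the thick ascending limb of the tubule, was at 472 to 3562 CPM, and all 10 measured markers of loop, distal tubule and collecting duct had counts in these glomerular libraries. The db/db puerarin libraries 2 and 3 had 528.5 and 819 CPM of Xist, against 0.52 to 6.47 CPM in the other 9 libraries, and 3.06 and 0.909 CPM of the Y-linked gene Ddx3y, against 50.3 to 85.2 CPM. These libraries go against the labels, which call the mice male, and every group-tag value for puerarin rests on them. In bulk RNA of this kind, fewer cells of a type and less RNA per cell cannot be told apart.

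None of the 9 genes passed the test in any comparison of the groups. In edgeR's quasi-likelihood test with Benjamini-Hochberg adjustment over all genes, 0 of 9 passed in puerarin-treated against vehicle-treated db/db glomeruli, where 0% of all genes passed. In puerarin-treated db/db against db/m glomeruli 0 of 9 passed, against 0.182% of all genes, and in db/db against db/m glomeruli on vehicle 0 of 9 passed, against 0.0437% of all genes. At an unadjusted p under 0.05 the counts in these comparisons were 1 of 9 (Esm1), 2 of 9 (Angpt2 and Lrg1) and 3 of 9 (Vegfa, Esm1 and Lrg1), against 4.21%, 10.3% and 10.3% of all genes. DESeq2 called 0, 1 (Lrg1) and 2 (Esm1 and Lrg1) of 9, against 0.109%, 2.16% and 2.11% of all genes. Limma voom called 0 of 9 in each, against 0%, 0% and 0.0582% of all genes. Between library name forms 1 of 9 passed, Esm1, against 6.97% of all genes. Without the puerarin libraries 2 and 3, which left a single puerarin library assumed to vary like the others, 0 of 9 passed in each group comparison. Lrg1 was then at a log2 fold change of 0.58 for puerarin against vehicle and 2.34 against db/m, and Esm1 at 0.15 and -0.59 (edgeR adjusted p of 0.299 or more).

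**Figure D1:**
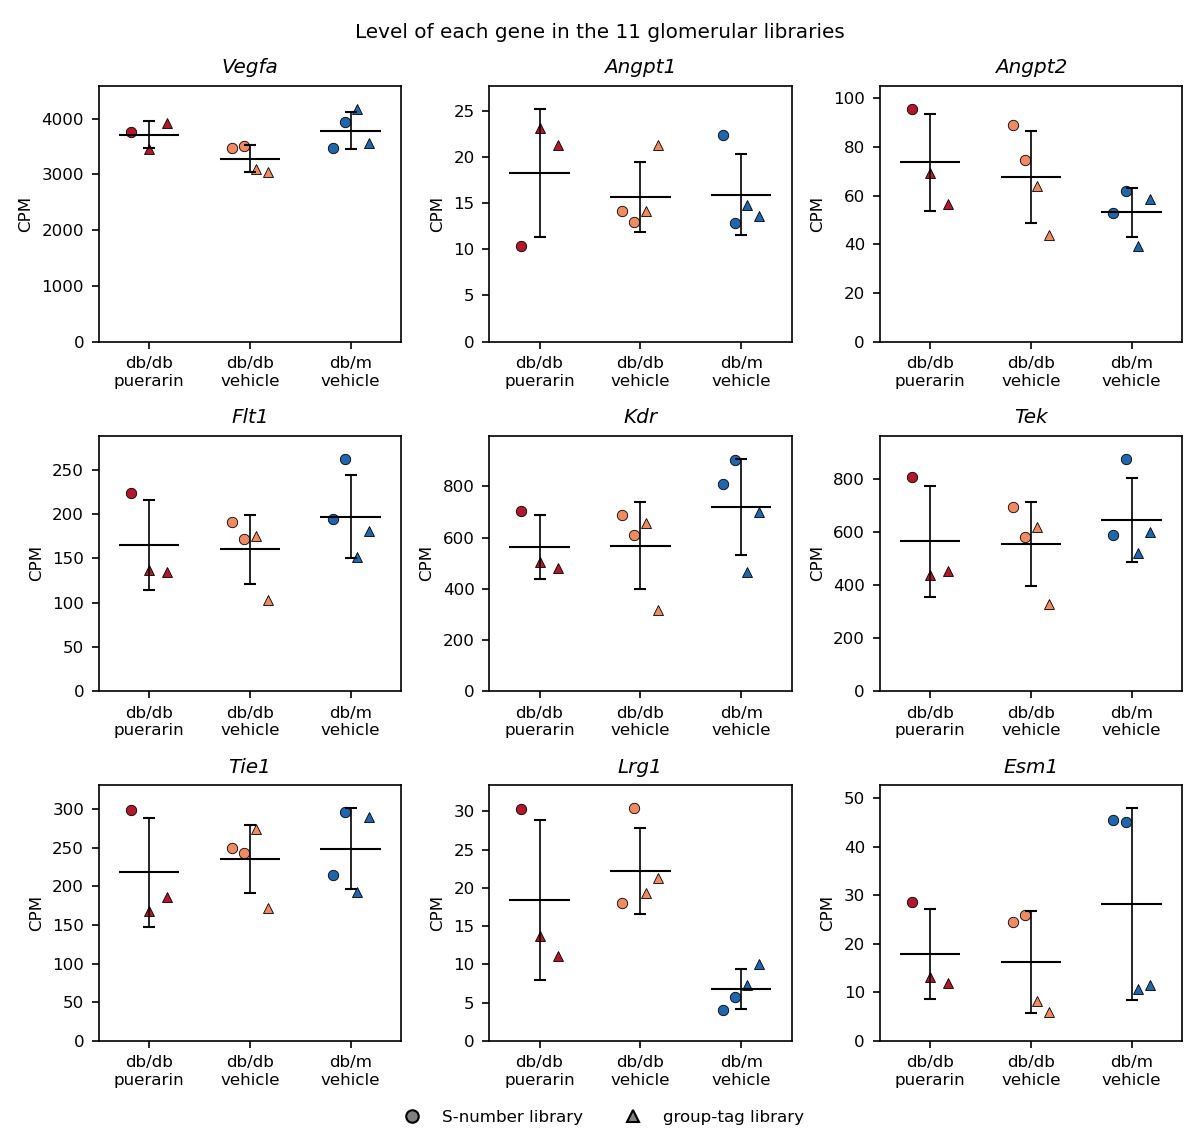
Level of each of the 9 genes in CPM (linear axis from 0) in the 11 libraries, by group, with circles for S-number and triangles for group-tag libraries, a line for the group mean and bars for the SD. Lrg1 was at 11.1 CPM or more in every db/db library of either treatment and at 10.1 CPM or less in every db/m library, and Esm1 was at 24.6 CPM or more in every S-number library and at 13.2 CPM or less in every group-tag library.

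Levels could be compared between genes only per transcript length, taking the transcript row with the highest count of each gene. Vegfa was the highest of the 9, with 141 ± 13.5 CPM per kilobase (SD, n = 11), followed by Kdr at 114 ± 30.8 CPM per kilobase. Vegfa exceeded Kdr in 9 of 11 libraries, so these neighbours overlapped. Below them came Tie1 at 60.6 ± 13.0, Tek at 42.4 ± 11.5 and Flt1 at 27.9 ± 7.03 CPM per kilobase, and each of these exceeded the next in 11 of 11 libraries. Angpt2 followed at 18.0 ± 4.85 CPM per kilobase, below Flt1 in 11 of 11 libraries. Lrg1 at 11.5 ± 6.78 and Esm1 at 9.99 ± 6.73 CPM per kilobase were not clearly ordered, since Lrg1 exceeded Esm1 in 9 of 11 libraries and Angpt2 exceeded Lrg1 in 9 of 11. Angpt1 was lowest, at 1.95 ± 0.528 CPM per kilobase, below Esm1 in 11 of 11 libraries.

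**Figure D2:**
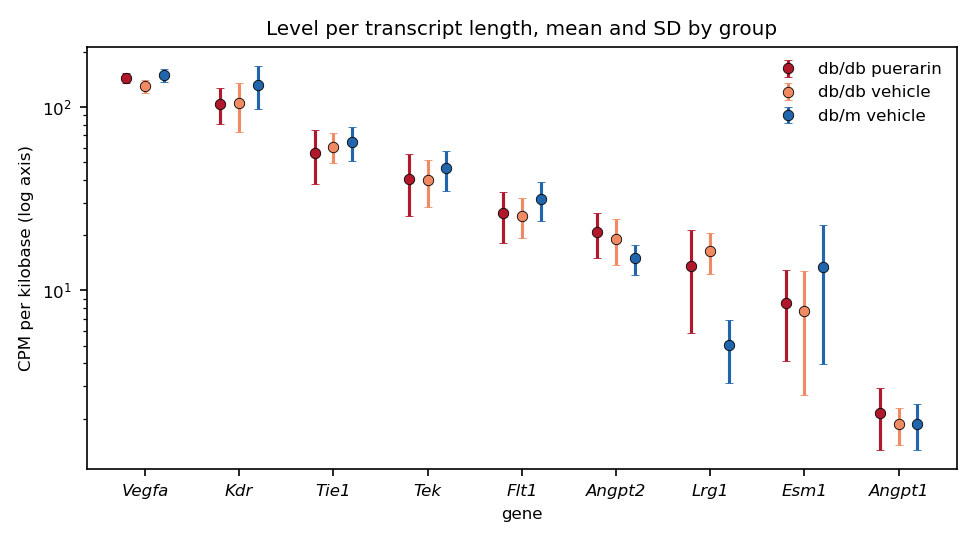
Mean level of each gene in CPM per kilobase of its highest transcript row (log axis), with SD bars, in the puerarin-treated db/db (n = 3), vehicle-treated db/db (n = 4) and db/m libraries (n = 4). Vegfa is at the upper end and Angpt1 at the lower end in all 3 groups, and Lrg1 is the gene whose db/m mean, 5.02 CPM per kilobase, lies farthest below its db/db vehicle mean, 16.4 CPM per kilobase.

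The upstream sequences of Esm1, Lrg1 and Kdr are shown because Esm1 separated the name forms, Lrg1 the genotypes, and Kdr followed Esm1 across libraries. Other receptors did so as well: Pearson r with Esm1 was 0.79 for Kdr, 0.80 for Flt1, 0.73 for Tek and 0.46 for Tie1. The sequences are the 250 bases before the start site in RefSeq on GRCm38.p6, read 5′ to 3′ on the gene's strand. Capitals mark GGAA, the core of sites bound by ETS factors of endothelium, ACGTG, the core of the hypoxia response element, and GGGCGG, the GC box, each on either strand. RefSeq start sites were at hand for 7 of the 9 genes, which have 8 such windows, as Vegfa has a pair.
Esm1 (chr13:113209409-113209658, plus strand): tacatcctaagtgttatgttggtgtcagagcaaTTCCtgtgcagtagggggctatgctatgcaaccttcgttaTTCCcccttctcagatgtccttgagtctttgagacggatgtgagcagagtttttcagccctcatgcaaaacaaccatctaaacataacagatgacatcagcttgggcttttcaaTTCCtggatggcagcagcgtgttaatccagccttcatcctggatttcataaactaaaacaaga
Lrg1 (chr17:56121947-56122196, minus strand): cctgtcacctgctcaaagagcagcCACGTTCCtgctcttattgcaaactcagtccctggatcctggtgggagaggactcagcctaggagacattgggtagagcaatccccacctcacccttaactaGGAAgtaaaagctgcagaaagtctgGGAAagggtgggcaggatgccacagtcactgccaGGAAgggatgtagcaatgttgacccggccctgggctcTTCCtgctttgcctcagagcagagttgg
Kdr (chr5:75978456-75978705, minus strand): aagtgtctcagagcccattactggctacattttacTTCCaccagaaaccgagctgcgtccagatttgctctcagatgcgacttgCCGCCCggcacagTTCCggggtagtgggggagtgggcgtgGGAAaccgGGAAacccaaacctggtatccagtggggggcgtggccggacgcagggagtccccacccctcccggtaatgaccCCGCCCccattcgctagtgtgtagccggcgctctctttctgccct
GGAA occurred 3 times before Esm1, 5 times before Lrg1 and 4 times before Kdr. Over all 32851 such windows the median was 3 matches, 93.4% held it and 33.4% held 4 or more matches. GGGCGG occurred 2 times before Kdr and not in the windows of Esm1 and Lrg1, and 32.7% of all windows held it. ACGTG occurred once in the Lrg1 window, where it shares a base with a GGAA match, and 16.6% of all windows held it. The windows differed in base composition, with 44% G and C before Esm1, 55.2% before Lrg1 and 61.6% before Kdr, against a median of 52.4% over all windows. These are matches of letters and were not tested as sites.

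None of the 3 ligands passed the test between groups, and their libraries overlapped. Vegfa was at 3764, 3445 and 3914 CPM in puerarin-treated db/db glomeruli (S144, 2 and 3), at 3471, 3511, 3093 and 3046 CPM in db/db vehicle glomeruli (S152, S153, 1 and 3), and at 3474, 3941, 4166 and 3552 CPM in db/m glomeruli (S184, S185, 2 and 3). The lowest values of Vegfa were the group-tag db/db vehicle libraries, while the S-number db/db vehicle libraries overlapped with the other groups. Its level was 3708 ± 240 CPM with puerarin and 3280 ± 245 CPM on vehicle in db/db mice (SD, n = 3 and 4), a log2 fold change of 0.19 (SE 0.10, 95% confidence interval -0.04 to 0.41, edgeR adjusted p = 0.967). In db/db against db/m glomeruli on vehicle, 3280 ± 245 against 3783 ± 327 CPM (SD, n = 4 each), the log2 fold change was -0.21 (SE 0.09, edgeR adjusted p = 0.477). Within the S-number libraries that difference was -0.09 and within the group-tag libraries -0.33. Vegfa lies on chromosome 17 (46016993 to 46032377, minus strand, mm10).

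Angpt2, the angiopoietin made by endothelial cells, was at 95.5, 69.1 and 56.4 CPM with puerarin in db/db glomeruli (S144, 2 and 3), at 88.8, 74.4, 63.9 and 43.7 CPM on vehicle (S152, S153, 1 and 3), and at 52.8, 61.9, 39.1 and 58.6 CPM in db/m glomeruli (S184, S185, 2 and 3). The groups overlapped, and in each db/db group the S-number libraries were the highest. Puerarin-treated db/db glomeruli were at 73.7 ± 19.9 CPM and db/m glomeruli at 53.1 ± 10.1 CPM (SD, n = 3 and 4), with a log2 fold change of 0.52 (SE 0.18, 95% confidence interval 0.12 to 0.93, edgeR adjusted p = 0.34). It was 0.32 in db/db against db/m glomeruli on vehicle (SE 0.17, edgeR adjusted p = 0.569) and 0.20 for puerarin against vehicle in db/db glomeruli (SE 0.18, edgeR adjusted p = 0.967). Over the 11 libraries Angpt2 followed the mean level of 15 glomerular endothelial markers, with Pearson r = 0.92, whose libraries also share their name form. That marker level ran from -0.05 to 0.44 on the log2 scale with puerarin. It ran from -0.45 to 0.16 in db/db mice on vehicle and from -0.32 to 0.13 in db/m libraries, and the groups overlapped. Of its 15 genes, 2 passed as higher and 0 as lower in puerarin-treated db/db against db/m glomeruli, against 0.182% of all genes in either direction. The level thus holds genes that themselves differ between groups, and its part in the Angpt2 values was not tested. With that level as a further term, chosen after seeing the data, the log2 fold change of Angpt2 was -0.0046 for puerarin against vehicle in db/db glomeruli and 0.23 in both comparisons against db/m (edgeR adjusted p = 0.999, and 0.37 and 0.262). Angpt2 lies on chromosome 8 (18690263 to 18741562, minus strand, mm10).

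The CPM of Angpt1, the Tie2 agonist, sum 2 transcript rows, to 1.95 times the count of the highest row (5.38 to 11.7 CPM). Angpt1 was the least abundant gene per kilobase. It was at 10.4, 23.1 and 21.3 CPM in puerarin-treated db/db glomeruli (S144, 2 and 3), at 14.1, 13.0, 14.1 and 21.3 CPM in db/db vehicle glomeruli (S152, S153, 1 and 3), and at 22.3, 12.9, 14.8 and 13.6 CPM in db/m glomeruli (S184, S185, 2 and 3). The group-tag puerarin libraries, db/db vehicle 3 and db/m S184 were the highest, and the groups overlapped. Its log2 fold changes were 0.15 for puerarin against vehicle in db/db glomeruli (SE 0.29), 0.10 for puerarin in db/db mice against db/m glomeruli (SE 0.29) and -0.06 for vehicle-treated db/db against db/m glomeruli (SE 0.26), with edgeR adjusted p-values of 0.977, 0.968 and 0.962. The 95% confidence interval of the puerarin difference was -0.49 to 0.79. The log2 ratio of Angpt2 to Angpt1 per kilobase was 4.43, 2.84 and 2.67 with puerarin, 3.82, 3.75, 3.43 and 2.30 on vehicle in db/db glomeruli, and 2.48, 3.51, 2.66 and 3.38 in db/m glomeruli. The ratio was thus above 0 in every library and overlapped between all groups. Angpt1 lies on chromosome 15 (42424667 to 42676977, minus strand, mm10).

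The 4 receptor genes moved together between libraries more than between groups. Kdr, the main signalling receptor of VEGF-A, was at 705, 504 and 479 CPM with puerarin in db/db glomeruli (S144, 2 and 3), at 689, 611, 656 and 319 CPM on vehicle (S152, S153, 1 and 3), and at 808, 903, 466 and 701 CPM in db/m glomeruli (S184, S185, 2 and 3). The lowest library was db/db vehicle 3, and the groups overlapped. Its log2 fold changes were 0.06 for puerarin against vehicle in db/db glomeruli (SE 0.22, 95% confidence interval -0.42 to 0.54), and -0.33 for vehicle-treated db/db against db/m glomeruli (SE 0.20, edgeR adjusted p = 0.627). Kdr lies on chromosome 5 (75933270 to 75978428, minus strand, mm10).

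Flt1 encodes VEGFR1, which binds VEGF-A tightly, signals weakly and also exists as a secreted decoy. It was at 224, 137 and 135 CPM with puerarin (S144, 2 and 3), at 191, 172, 175 and 103 CPM on vehicle in db/db glomeruli (S152, S153, 1 and 3), and at 194, 262, 151.6 and 180 CPM in db/m glomeruli (S184, S185, 2 and 3). As for Kdr, db/db vehicle 3 was lowest and the groups overlapped. All Flt1 counts stood in a single transcript row, NM_010228, of 6280 bases on chromosome 5 (147562196 to 147725988, minus strand, mm10), so no share of counts between Flt1 rows could be computed, and the secreted form was not analysed here. Fitted among all 22320 rows, that row had log2 fold changes of 0.10 for puerarin against vehicle (SE 0.17, edgeR adjusted p = 0.965), -0.19 for puerarin in db/db mice against db/m (SE 0.17, edgeR adjusted p = 0.825) and -0.29 for vehicle-treated db/db against db/m mice (SE 0.16, edgeR adjusted p = 0.575). The share of all rows that passed was 0% in the first of these comparisons, 0.0269% in the second and 0.0179% in the third.

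Tek encodes Tie2 and was at 806, 437 and 452 CPM with puerarin (S144, 2 and 3), at 692, 579, 617 and 330 CPM on vehicle in db/db glomeruli (S152, S153, 1 and 3), and at 588, 875, 519 and 599 CPM in db/m glomeruli (S184, S185, 2 and 3). Tie1 was at 299, 169 and 187 CPM with puerarin (S144, 2 and 3), at 250, 243, 274 and 172 CPM on vehicle in db/db glomeruli (S152, S153, 1 and 3), and at 215, 297, 193 and 290 CPM in db/m glomeruli (S184, S185, 2 and 3). For both genes the groups overlapped. The CPM of Tek sum 3 transcript rows, to 2.96 times the count of the highest row. Tek was lowest in db/db vehicle 3 and highest in db/m S185, and Tie1 was lowest in puerarin 2 and highest in puerarin S144. Over the 3 group comparisons the log2 fold changes of Tek lay between -0.22 and 0.08 and those of Tie1 between -0.17 and -0.08, with edgeR adjusted p-values of 0.746 or more for Tek and 0.883 or more for Tie1. Tek lies on chromosome 4 (94739289 to 94874976, plus strand), as does Tie1 (118471191 to 118489849, minus strand, mm10).

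**Figure D3:**
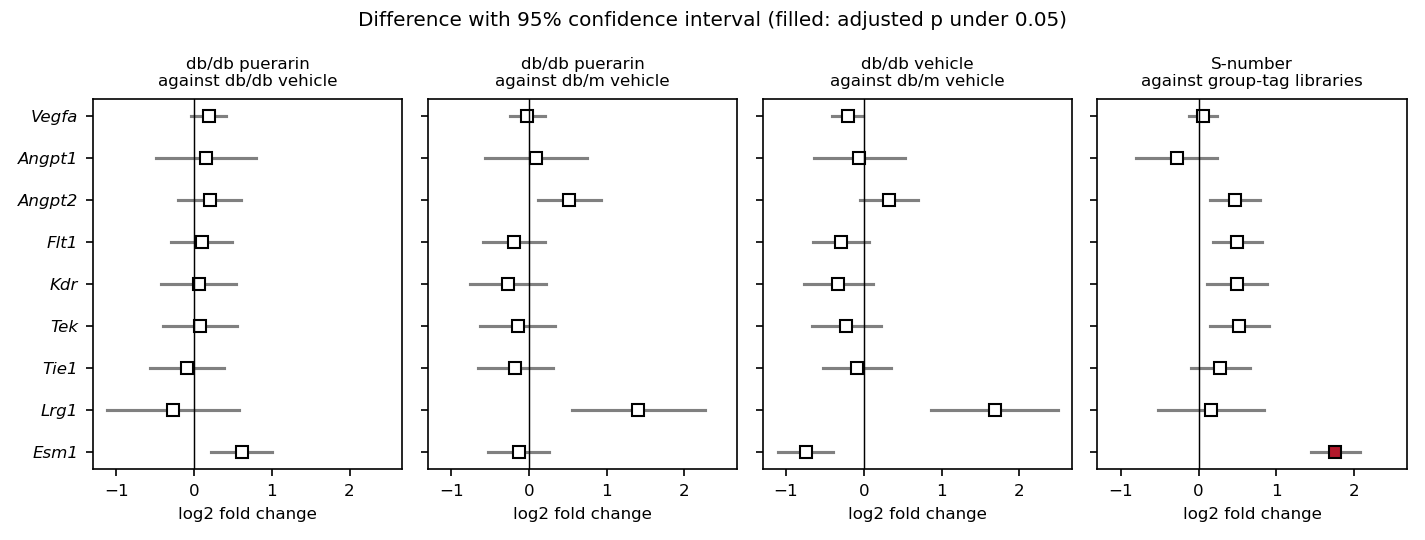
Log2 fold change of each gene (x axis) with its 95% confidence interval in the 3 group comparisons and between library name forms, with a filled square where the edgeR adjusted p was under 0.05. The filled square is Esm1 between name forms, at 1.76, and the open squares farthest from 0 are Lrg1 in both comparisons against db/m, at 1.41 and 1.68.

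Lrg1, a secreted leucine-rich glycoprotein that modulates TGF-beta signalling in endothelium through endoglin, had the largest differences of the 9 genes in both comparisons against db/m, though it did not pass. It was at 30.3, 13.7 and 11.1 CPM in puerarin-treated db/db glomeruli (S144, 2 and 3), at 18.0, 30.4, 19.3 and 21.3 CPM in db/db vehicle glomeruli (S152, S153, 1 and 3), and at 4.04, 5.74, 7.31 and 10.1 CPM in db/m glomeruli (S184, S185, 2 and 3). Every db/db library lay above every db/m library, as for 1.23% of all genes, with the group-tag puerarin libraries nearest to db/m. Taken by treatment, 2.48% of all genes were higher without overlap in db/db against db/m on vehicle, and 3.73% in puerarin-treated db/db against db/m.

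On vehicle, Lrg1 was at 22.2 ± 5.60 CPM in db/db and 6.80 ± 2.58 CPM in db/m glomeruli (SD, n = 4 each), a log2 fold change of 1.68 (SE 0.37, 95% confidence interval 0.87 to 2.5, edgeR adjusted p = 0.138). An exact two-sided permutation of its log2 CPM gave p = 0.0286, the smallest p that 4 against 4 libraries allow, among 27 such tests made over the 9 genes and 3 comparisons. Within the S-number libraries the log2 fold change was 2.30 (edgeR adjusted p = 0.0509, where 0.0874% of all genes passed) and within the group-tag libraries 1.22 (edgeR adjusted p = 0.324). The difference between these name forms had an unadjusted p of 0.0285 and did not pass (edgeR adjusted p = 0.9998). Without db/m S184 and S185 together, the log2 fold change was 1.02 (edgeR adjusted p = 0.44).

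In puerarin-treated db/db against db/m glomeruli, 18.4 ± 10.4 against 6.80 ± 2.58 CPM (SD, n = 3 and 4), Lrg1 had a log2 fold change of 1.41 (with SE 0.39, and edgeR adjusted p = 0.223). This value leaned on the puerarin library S144: without it the log2 fold change was 0.76 (edgeR adjusted p = 0.517). Within the S-number libraries, where S144 is the only puerarin library and is assumed to vary like the others, the log2 fold change was 2.63. Within the group-tag libraries it was 0.51 (edgeR adjusted p = 0.687), a difference of 2.12 between the name forms. Puerarin against vehicle in db/db glomeruli gave -0.27 (SE 0.38, 95% confidence interval -1.12 to 0.57, edgeR adjusted p = 0.971), with 0.33 within S-number libraries and -0.71 within group-tag ones. Lrg1 lies on chromosome 17 (56119678 to 56121946, minus strand, mm10).

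LRG1 is also made by neutrophils, and the level of white cell markers differed between the groups without passing; its part in the Lrg1 values was not tested beyond the values given here. Of the 13 listed myeloid and neutrophil markers 11 were measured (not Ly6g and Cxcr2), and none was at 0 in every library. Their summed level was 131 to 234 CPM in puerarin-treated db/db, 147 to 860 CPM in db/db mice on vehicle and 78.2 to 219 CPM in db/m mice. Their mean level on the log2 scale ran from -0.28 to 0.59 with puerarin and from -0.06 to 2.46 in db/db mice on vehicle. It ran from -1.38 to -0.37 in db/m mice, so every db/db library lay above every db/m library on that scale, as for Lrg1. All 11 markers had positive log2 fold changes in db/db against db/m on vehicle (median 1.12, against 0.02 over all genes), with 0 of 11 passing. The upper end of the db/db vehicle range in either measure is db/db vehicle 1, whose Lrg1, at 19.3 CPM, was below that of db/db vehicle S153 and 3. Without db/db vehicle 1 the log2 fold change of Lrg1 was 1.73 (edgeR adjusted p = 0.111). The neutrophil gene S100a9 was at 6.82 to 15.6 CPM with puerarin, at 5.05 to 19.3 CPM on vehicle in db/db and at 3.06 to 7.85 CPM in db/m libraries, and its groups overlapped. Csf3r, the receptor for the neutrophil growth factor G-CSF, was at 6.93 to 8.39 CPM with puerarin, at 6.79 to 15.8 CPM on vehicle in db/db and at 4.08 to 6.62 CPM in db/m libraries. Like Lrg1, Csf3r and the macrophage genes C1qa, C1qb and C1qc were higher in every db/db library than in every db/m library, which makes 4 of the 11 markers, against 1.23% of all genes.

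Esm1 encodes endocan, a proteoglycan that endothelial cells secrete in response to VEGF. It was at 28.7, 13.2 and 12.0 CPM in puerarin-treated db/db glomeruli (S144, 2 and 3), at 24.6, 26.0, 8.25 and 5.95 CPM in db/db vehicle glomeruli (S152, S153, 1 and 3), and at 45.4, 45.1, 10.6 and 11.4 CPM in db/m glomeruli (S184, S185, 2 and 3). Its values fell into separate ranges by library name form, and the groups overlapped. All 5 S-number libraries (34.0 ± 10.4 CPM, SD) lay above all 6 group-tag libraries (10.2 ± 2.68 CPM, SD), as did those of 1.58% of all genes. The log2 fold change between name forms was 1.76 (SE 0.14, edgeR adjusted p = 0.000318), the eighth smallest p of all genes, and it was past the threshold in all 22 other settings. It was 1.19 within db/db puerarin, 1.83 within db/db vehicle and 2.04 within db/m vehicle libraries (edgeR adjusted p = 0.0696, 0.0146 and 0.00332).

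Within either name form, Esm1 was lowest in the db/db vehicle libraries, without passing the test. Its log2 fold change in db/db against db/m glomeruli on vehicle was -0.74 (SE 0.16, 95% confidence interval -1.10 to -0.39, edgeR adjusted p = 0.138), with -0.84 within S-number libraries and -0.63 within group-tag ones. Puerarin-treated against vehicle-treated db/db glomeruli gave 0.61 (SE 0.18, 95% confidence interval 0.22 to 1.0, edgeR adjusted p = 0.967), with 0.18 within S-number libraries and 0.83 within group-tag ones. Against db/m glomeruli, puerarin-treated db/db glomeruli gave -0.13 (SE 0.18, edgeR adjusted p = 0.902), at -0.66 in S-number and 0.19 in group-tag libraries. With no term for name form, the exact two-sided permutation p-values of Esm1 were 0.629 for puerarin against vehicle and 0.4 for vehicle-treated db/db against db/m mice. Esm1 lies on chromosome 13 (113209659 to 113218104, plus strand, mm10).

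Markers of loop, distal tubule and collecting duct also separated the name forms. All 10 loop, distal tubule and collecting duct markers were measured, none was at 0 in every library, and their summed level was 1584 to 5881 CPM in S-number and 6253 to 11987 CPM in group-tag libraries, with 5 of 10 lower in S-number libraries past the test, against 5.65% of all genes. The 15 glomerular endothelial markers summed to 7840 to 11807 CPM in S-number and 6094 to 9220 CPM in group-tag libraries, with 1 of 15 higher past the test, against 1.32% of all genes. The 10 proximal tubule markers summed to 1087 to 5806 CPM in S-number and 627 to 3073 CPM in group-tag libraries, which overlapped, and 0 of 10 passed. The 12 mesangial markers summed to 2058 to 2474 CPM in S-number and 1726 to 3050 CPM in group-tag libraries, which overlapped. Of these 12, 1 passed as higher and 4 as lower in S-number libraries, against 1.32% and 5.65% of all genes. With the loop, distal tubule and collecting duct marker level as a term, an alternative chosen after seeing the data, the log2 fold change of Esm1 between name forms was 1.92 (edgeR adjusted p = 0.0077). With the mean level of both tubule lists as a term it was 1.77 (edgeR adjusted p = 6.72e-05). With the endothelial marker level as a term it was 1.73 (edgeR adjusted p = 0.00252). The receptors were also higher in S-number libraries without passing, with log2 fold changes of 0.50 for Flt1 (edgeR adjusted p = 0.0605), 0.52 for Tek (0.0924), 0.49 for Kdr (0.112) and 0.28 for Tie1 (0.322), and so was Angpt2, with 0.46 (0.083). With the loop, distal tubule and collecting duct marker level as a term these were 0.07 for Flt1, -0.03 for Tek, 0.22 for Kdr, -0.26 for Tie1 and 0.26 for Angpt2 (edgeR adjusted p of 0.556 or more). That level did not overlap between name forms (log2 scale, -1.59 to -0.0063 in S-number, 0.213 to 0.942 in group-tag libraries), so their parts cannot be told apart. With the endothelial marker level as a term the values were 0.21 for Flt1, 0.16 for Tek, 0.20 for Kdr, -0.07 for Tie1 and 0.18 for Angpt2. With the mean level of both tubule lists as a term, more genes passed than Esm1 alone, as given in the last section.

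Across the 11 libraries the levels of the receptors rose and fell together. As a description over 11 libraries that share groups, name forms and depth, Pearson r of log2 CPM was 0.98 for Flt1 and Tek (Spearman rho 0.93), 0.95 for Flt1 and Kdr (0.95), 0.90 for Kdr and Tek (0.85) and 0.88 for Tek and Tie1 (0.94). Within the 6 group-tag libraries alone these were 0.99, 0.96, 0.94 and 0.84, and without the 2 libraries farthest from the median 0.96, 0.88, 0.85 and 0.87. Angpt1 ran opposite to them, with r = -0.85 against Tie1, -0.77 against Tek, -0.68 against Flt1 and -0.50 against Kdr, and -0.86, -0.83, -0.81 and -0.67 within the group-tag libraries. Tek (-0.88), Flt1 (-0.87), Tie1 (-0.74) and Kdr (-0.71) ran opposite to the loop, distal tubule and collecting duct marker level. Angpt1 followed that level, with r = 0.71. With the glomerular endothelial marker level r was 0.75, 0.68, 0.72 and 0.63 for these receptors and -0.68 for Angpt1. With the podocyte marker level it was 0.83, 0.83, 0.61 and 0.70, and -0.68 for Angpt1. The part of these levels in the correlations was not tested. Vegfa, the podocyte ligand, had r = 0.38 with Flt1 and 0.24 with Kdr. Esm1 had r = 0.79 with Kdr over all libraries and 0.52 within the group-tag libraries. The log2 ratio of Kdr to Flt1 per kilobase stayed between 1.83 and 2.26 in the 11 libraries, while that of Esm1 to Kdr ran from -4.94 to -2.78.

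**Figure D4:**
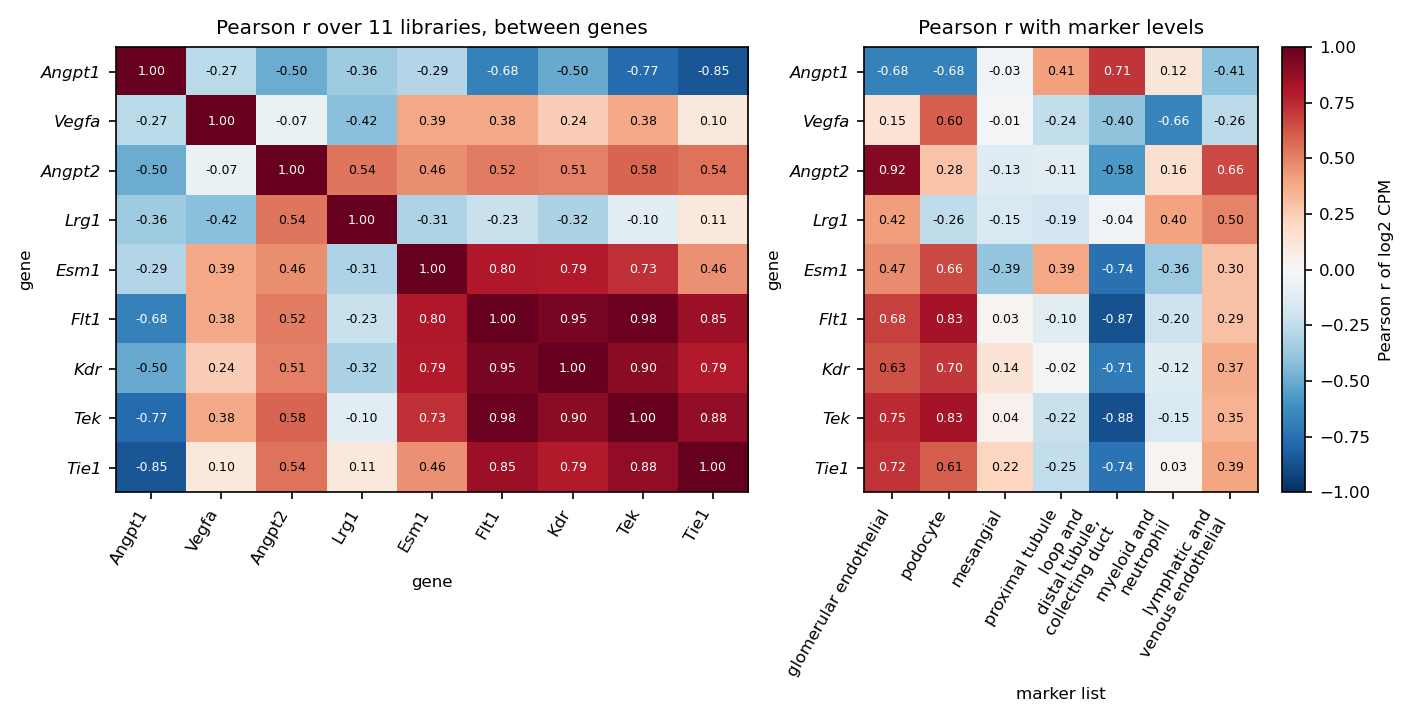
Pearson r of log2 CPM over the 11 libraries between the 9 genes (left) and with the mean level of each marker list (right), written in each cell, with red for positive and blue for negative values. The block of Flt1, Kdr, Tek and Tie1 has r of 0.79 or more, Angpt1 is negative against every other gene, and Angpt2 has its highest value, 0.92, with the glomerular endothelial markers.

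Of the 13708 other genes with a mean of at least 1 CPM, those most like Tek were Cnrip1 (r = 0.98), Pcdh18 (0.98) and Dlc1 (0.97), and those most like Flt1 were Tgfbr2 (0.97), which encodes a TGF-beta receptor, Impdh1 (0.97) and AU021092 (0.97). Kdr was nearest to Unc5b (0.98), a netrin receptor of endothelium, Lgals7 (0.96) and Tmem26 (0.96), and Tie1 to Mob3a (0.98), Pcdh1 (0.98) and Ppp1r9b (0.97). Angpt2 was nearest to Plac9b (0.95), F2r (0.94), the thrombin receptor gene, and Bmp2 (0.94), and Angpt1 to Tyw3 (0.93), Ddb2 (0.93) and 2300009A05Rik (0.92). Lrg1 was nearest to Nupr1 (0.93), a stress-response gene, Hhipl1 (0.93) and Man2a1 (0.92), Esm1 to Alox12 (0.93), Mzt2 (0.93) and Ovca2 (0.92), and Vegfa to Selenoi (0.89), Gid4 (0.88) and Sp140 (0.87). All are Pearson r over 11 libraries and are the highest of many, so they describe these libraries only.

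The Vegfa counts were spread over 10 transcript rows that share most of their reads, so the sum over rows is 7.21 times the count of the longest row, NM_001025250 (3531 bases). Among other differences, the rows differ by a 72-base and a 132-base stretch, which belong to the exons that encode the heparin-binding part of VEGF-A, and by their start. Row pairs that differ by the same stretch differed by the same number of reads in 11 of 11 libraries, at both starts. The 132-base stretch held 16.2 ± 1.52% of the count of the longest row in puerarin-treated db/db, 15.1 ± 1.41% in vehicle-treated db/db and 14.5 ± 1.32% in db/m libraries, and the 72-base stretch 2.61 ± 0.40%, 2.61 ± 0.211% and 2.44 ± 0.102% (SD, n = 3, 4 and 4). These shares overlapped between the groups.

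Of the 10 rows 3 begin at a downstream start, 46025163 on chromosome 17, inside the gene. The sequence before it is shown because the counts of these rows differed between libraries. That sequence also lies inside the gene, and its motif matches were not tested as sites. Unlike for the other windows, bases just after this start were not found in the transcripts checked.
Vegfa, downstream start (chr17:46025164-46025413, minus strand): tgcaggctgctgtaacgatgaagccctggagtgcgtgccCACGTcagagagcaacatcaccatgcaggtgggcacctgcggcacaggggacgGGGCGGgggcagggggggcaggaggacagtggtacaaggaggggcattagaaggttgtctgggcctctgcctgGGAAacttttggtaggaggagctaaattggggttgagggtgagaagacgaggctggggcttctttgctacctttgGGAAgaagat
Its capitals mark the same motifs, with 2 matches of GGAA and 1 each of ACGTG and GGGCGG. The longest row of this kind, NM_001110266 (2841 bases), had 27.2%, 33.8% and 34.7% of the count of NM_001025250 in puerarin-treated db/db glomeruli (S144, 2 and 3), 23.7%, 23.7%, 28.8% and 31.9% in db/db vehicle glomeruli (S152, S153, 1 and 3), and 24.2%, 25.0%, 27.7% and 29.1% in db/m glomeruli (S184, S185, 2 and 3). All S-number libraries (24.8 ± 1.47%, SD, n = 5) lay below all group-tag libraries (31.0 ± 2.87%, SD, n = 6). These ranges lay close, with 27.2% the highest S-number and 27.7% the lowest group-tag value. Within each name form the puerarin libraries were above both other groups. In S-number libraries this rests on S144 alone, and in group-tag libraries on puerarin 2 and 3, whose Xist and Ddx3y go against the labels. How many other rows separate in these ways was not computed.

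The shortest of these rows, NM_001110268 (2637 bases), lacks both stretches and had counts of 1134 to 3433. Its log2 fold change between S-number and group-tag libraries was -0.53 (SE 0.12, edgeR adjusted p = 0.032, against 7.11% of all rows passing). The call did not hold without db/db puerarin S144 (adjusted p = 0.143), db/db vehicle S152 (0.064), S153 (0.0711) or 3 (0.0797), or db/m 2 (0.0671), each in edgeR. For puerarin against vehicle in db/db glomeruli this row was at 0.57 (SE 0.15, edgeR adjusted p = 0.955), while the longest row was at 0.17 (SE 0.10, edgeR adjusted p = 0.955). The rows with the downstream start lie within the span of the long rows. Both stretches gave equal read differences at both starts in 11 of 11 libraries, so their reads entered rows of either start. The percents of the longest row thus do not separate use of the downstream start from reads of shared exons. The sources used here do not give how reads were assigned to rows.

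**Figure D5:**
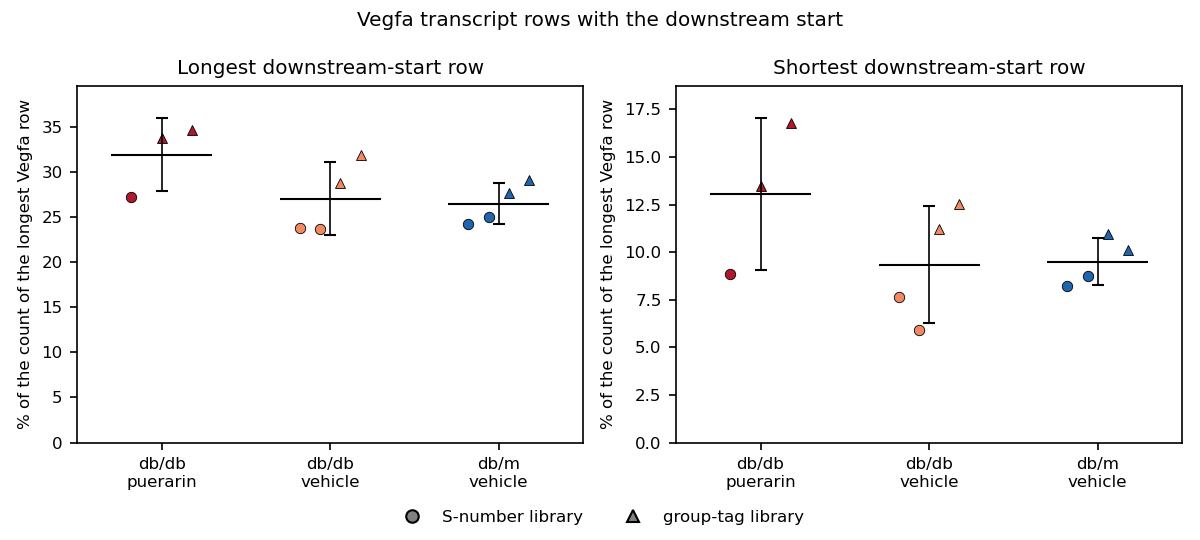
Count of the longest (left, NM_001110266) and shortest (right, NM_001110268) Vegfa row with the downstream start, as a percent of the count of the longest Vegfa row, in each library by group, with lines for means and bars for SD. Rows of both starts share reads, so the percent does not measure use of the downstream start alone. In each group the circles (S-number) lie below the triangles (group-tag), and on the left the puerarin libraries run from 27.2% to 34.7%, against 23.7% to 31.9% in vehicle-treated db/db and 24.2% to 29.1% in db/m libraries.

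Further genes of these pathways were described by lists. Of 7 measured other VEGF ligands and receptors, 0 passed in each group comparison, and their median log2 fold change was -0.02 for puerarin against vehicle, 0.10 for puerarin in db/db mice against db/m and 0.13 for vehicle-treated db/db against db/m mice, against medians of -0.02, -0.01 and 0.02 over all genes. Pgf, placental growth factor, was at 3.10 ± 0.918 CPM with puerarin, 3.42 ± 2.04 CPM on vehicle in db/db and 6.26 ± 1.55 CPM in db/m glomeruli (log2 fold change -1.15 and -0.98 against db/m, edgeR adjusted p = 0.268 and 0.303). Vegfd, a ligand of lymphatic endothelium, was at 26.2 ± 5.19 CPM with puerarin, 26.5 ± 6.89 CPM on vehicle in db/db and 15.1 ± 3.06 CPM in db/m glomeruli (log2 fold change 0.79 and 0.81 against db/m, edgeR adjusted p = 0.265 and 0.236). Vegfc was at 8.67 ± 1.22, 6.998 ± 0.885 and 5.76 ± 0.468 CPM in the same order of groups (log2 fold change 0.58 for puerarin in db/db mice against db/m, edgeR adjusted p = 0.202).

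Of 7 measured other genes of the angiopoietin and Tie pathway 0 passed in each group comparison. Dok2, an adaptor that binds activated Tie2, was at 6.15 ± 1.47 CPM with puerarin, 8.13 ± 4.36 CPM on vehicle in db/db and 3.45 ± 0.359 CPM in db/m glomeruli (log2 fold change 1.18 in db/db against db/m on vehicle, edgeR adjusted p = 0.149). Foxo1, the transcription factor that Tie2 signalling restrains, was at 43.4 ± 5.44, 43.8 ± 4.34 and 56.0 ± 9.95 CPM in the same order (log2 fold change -0.35 on vehicle, edgeR adjusted p = 0.352). Of 24 measured genes of VEGF receptor signal transduction 0 passed in each group comparison, and their median log2 fold change lay between -0.05 and -0.02 in all 3.

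Among 23 measured tip cell and VEGF-induced genes 0 passed in each group comparison. Ramp3, which encodes a subunit of the adrenomedullin receptor, was at 70.8 ± 16.5 CPM with puerarin, 57.1 ± 7.79 CPM on vehicle in db/db and 40.9 ± 5.38 CPM in db/m glomeruli (log2 fold change 0.81 for puerarin in db/db mice against db/m, edgeR adjusted p = 0.0693). Pdgfb, the endothelial signal for mesangial cells, was at 110 ± 19.5 CPM in db/db and 165 ± 39.2 CPM in db/m glomeruli on vehicle (log2 fold change -0.58, edgeR adjusted p = 0.279). A further list held 14 measured genes tied to hypoxia, not all of them regulators of Vegfa. In puerarin-treated db/db against db/m glomeruli, where 0.182% of all genes passed, 1 of these 14 did, and 0 passed in the other comparisons of groups. It was Adm (adrenomedullin), which rose to 94.9 ± 1.57 CPM in puerarin-treated db/db glomeruli, against 26.7 ± 2.59 CPM in db/m glomeruli (SD, n = 3 and 4, log2 fold change 1.85, SE 0.22, edgeR adjusted p = 0.042). It was at 58.0 ± 17.4 CPM in db/db vehicle glomeruli (log2 fold change 0.75 for puerarin against vehicle, edgeR adjusted p = 0.967, and 1.1 for vehicle-treated db/db against db/m mice, edgeR adjusted p = 0.0963). In puerarin-treated db/db against db/m glomeruli limma voom called 0 genes, and in edgeR no gene passed when db/db puerarin 2, db/db vehicle S152 or S153, or db/m S184, S185 or 3 was left out. Of 12 measured TGF-beta receptors and Lrg1 partners and of 14 measured anti-angiogenic genes 0 passed in each group comparison.

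Between name forms, more genes of these lists passed. In S-number libraries Pik3ca (0.28), Hlx (0.93) and Eng (0.47), the endoglin gene, were higher, and Vegfb (-0.75), Angpt4 (-1.19), Src (-0.60), Jag1 (-0.57), Slc2a1 (-0.61) and Serpinf1 (-1.67) were lower, given as log2 fold changes of S-number over group-tag libraries with edgeR adjusted p-values of 0.00245 to 0.0468. These are 9 of the 101 genes measured in the 7 lists, against 6.97% of all genes.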

How the data were processed

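Isolated glomeruli of 11 libraries were profiled by RNA sequencing. The deposited table gives read counts per RefSeq transcript row, and log2 values that differ from the log2 counts by 1 offset in each library, as checked on the deposited values, so the counts alone were used. Per the submitters' processing notes, BWA, limma and the mm10 build were used; the sources used here do not give how reads were assigned to rows. Of 15 count columns, 4 matched no sample and were not used. Counts were summed per symbol, so reads shared by rows count more than once. Fits used edgeR 4.0.16 (quasi-likelihood, TMM) in R 4.3.3 over 13734 genes, with group and library name form as terms, all 11 libraries, 7 residual degrees of freedom and a Benjamini-Hochberg adjusted p under 0.05, and were tested on simulated data. CPM are TMM-scaled; log2 CPM used a pseudocount of 0.1. Alternatives included DESeq2 1.42.0 and limma 3.58.1 voom, other scalings, a 5 CPM filter, single transcripts and left-out libraries. Named are the 9 genes, up to 3 genes of each list per comparison by smallest p, any that passed, and the 3 nearest genes by correlation. Genes, lists and markers were chosen with earlier results of these data known.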

Additional observations from a re-analysis of the deposited data

Results flagged for a closer look

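Angpt1 in db/db vehicle 3, at 21.3 CPM, stood apart from the other db/db vehicle libraries, which were at 13.0 to 14.1 CPM. It was 1 of 18 sets of libraries examined in this way, and chance flags about 1 in 20.

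In 4 comparisons of 3 genes every puerarin library lay on one side of the other group in the S-number libraries and on the opposite side in the group-tag libraries. The share of all genes that do so was not computed, so these flags were not set against chance. Each S-number value rests on 1 puerarin library and each group-tag value on puerarin 2 and 3. Some of these separations were near ties, as Angpt1 was at 21.32 CPM in puerarin 3 and 21.27 CPM in db/db vehicle 3. Tie1 was at 299.1 CPM in puerarin S144 and 296.6 CPM in db/m S185. For Angpt1 the log2 fold change of puerarin against vehicle in db/db glomeruli was -0.39 in S-number and 0.33 in group-tag libraries, a difference of -0.71 (edgeR adjusted p = 0.962). Against db/m glomeruli, Angpt1 was at -0.76 in S-number and 0.65 in group-tag libraries, a difference of -1.41 (edgeR adjusted p = 0.774). In the same comparison Tie1 was at 0.23 and -0.44, a difference of 0.67, and Esm1 at -0.66 and 0.19, a difference of -0.85 (edgeR adjusted p = 0.774 for each). None of these differences passed the test.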

How the results depend on the processing

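In 27 alternatives per group comparison, and 22 for the name forms, no called value changed sign. The Flt1 row, fitted by row in the group comparisons only, passed in none of its settings. In puerarin-treated db/db against db/m glomeruli 0 of 9 genes passed, 1 with DESeq2 and 1 within the S-number libraries (Lrg1 in both). In db/db against db/m on vehicle 0 passed, 2 with DESeq2 and 2 with the tubule marker level as a term (Esm1 and Lrg1 in both). Between name forms 1 passed, 4 with DESeq2, 3 with the tubule term, and 1 to 4 when single libraries were left out: 3 without db/m S184 (Flt1 and Tek added), 4 without db/db vehicle 1 (Flt1, Kdr and Tek added) and 2 without db/m 3 (Angpt2 added), where 1492, 1791 and 365 of all genes passed, against 957. The cause was not tested. Over all genes, calls ranged from 0 to 15 for puerarin against vehicle, 0 to 451 for puerarin in db/db mice against db/m, 0 to 290 for vehicle-treated db/db against db/m mice and 53 to 2106 between name forms, with DESeq2 at 15, 297, 290 and 1885. A replicate block on the title numbers called 0 of the 9 genes in each group comparison, and 0, 49 and 56 of all genes. The samples share only a number. Over 13717 genes, deviations from the group-tag means had r = 0.0578 for puerarin and db/m (number 2, and by construction also 3), -0.101 for puerarin 3 and db/db vehicle 3, and 0.0498 for db/db vehicle 3 and db/m 3. The name form comparison and the marker terms were chosen after seeing the data. Depth limits Lrg1, Esm1 and Angpt1 most, whose highest rows had as few as 159, 219 and 234 counts in a library.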
